A study of Mus musculus with 8 samples.

Results

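The mRNAs of the mitochondrial ribosome were followed in mouse embryos at the late 2-cell stage. The members were all genes of the deposited FPKM table whose symbol is Mrpl or Mrps with a number and at most 1 further letter, and they came to 77 of the 34976 symbols used. Their 284 transcript rows were summed per gene. Classed by the current names of ribosomal proteins, which tell bacterial relatives from mitochondria-specific ones, 50 members belong to the large subunit of the mitochondrial ribosome and 26 to the small subunit. Mrps30 and Mrps18a count with the large subunit, in which their proteins sit despite the name, and Mrps36 is set apart because its protein is assigned to the oxoglutarate dehydrogenase complex. FPKM is a level per transcript length and library total. Members had 1 to 11 rows, and a sum also depends on their number and on how shared reads were assigned. Levels of different genes can thus be compared only roughly.

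The mitochondrial ribosome makes the few respiratory chain proteins that the mitochondrial genome encodes. All its proteins are encoded in the nucleus, translated in the cytosol and imported, while its ribosomal RNAs come from mitochondrial DNA. Many of its proteins are relatives of bacterial ribosomal proteins, and the others are called mitochondria-specific here. The class follows the current names and does not always mean that no bacterial relative exists. Mrps18a and Mrps18b are in it, although they are paralogs of Mrps18c, which is classed as a bacterial relative. The early mouse embryo relies on mitochondria and mRNAs stored in the egg until its own genome is switched on, which takes place mainly at the 2-cell stage.

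The control group consisted of CF-1 mouse embryos injected at the early 1-cell stage with a scrambled control morpholino, and the other group of CF-1 embryos injected with morpholino oligonucleotides against Med13, whose protein ties the Mediator kinase module to the rest of that transcription complex. Each group had 4 libraries, each from a separate collection of 40 embryos grown to the late 2-cell stage, so a library is a pool and the tests rest on variation among pools. The title of the series frames the comparison as a question about MED13 and activation of the zygotic genome. All 8 pools were of the same stock and stage. A pool cannot tell fewer cells or embryos with an mRNA from less mRNA per cell.

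The FPKM values were whole multiples of a smallest step in 94.6% to 94.8% of low values (within 0.01 of a step), and the libraries held 62757879 to 96100452 such steps. Whether a step is a read or part of a fragment cannot be told from the values. Med13 itself stood at 41.3 ± 4.31 FPKM in controls and 42.2 ± 2.14 FPKM after the Med13 morpholino (n = 4 each, SD; two-sided exact permutation p = 0.629, smallest possible 0.0286), which does not test the labels since a morpholino can block translation and leave the mRNA. All 8 oocyte and zygote markers and 12 of 13 markers of the 2-cell embryo had a mean FPKM of at least 1. None of 10 cumulus and granulosa, 4 sperm and 3 blood markers found in the table reached that level. Their summed levels ran from 0.77 to 2.34, 0.12 to 0.91 and 0.77 to 1.29 FPKM in controls and from 0.87 to 1.43, 0.12 to 0.44 and 0.63 to 0.70 FPKM after the Med13 morpholino. Oviduct markers summed to 4.48 to 8.05 and 3.42 to 4.84 FPKM. No marker found was at 0 in every library. Of the embryo's own markers, 8 of 12 tested 2-cell ones rose and 1 fell (summed level 135 to 267 FPKM in controls and 318 to 683 FPKM after the Med13 morpholino), 4 of 8 oocyte ones rose (535 to 649 and 579 to 818 FPKM), and 1 oviduct marker fell. Their part in the results was not tested.

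Mitochondrial ribosomal protein mRNAs were present at low to moderate levels. Of the 77 members, 73 had a mean of at least 1 FPKM over the 8 libraries and were tested. Their median was 5.14 FPKM, beside 4.49 FPKM over all 11755 genes tested. Cytosolic ribosomal protein mRNAs, 76 in all, had library medians of 63.6 to 141 FPKM, and those of the 77 mitochondrial ones ran from 3.53 to 5.56 FPKM. As a share of the FPKM summed over all symbols used, the members made up 0.261% ± 0.0226 in controls. After the Med13 morpholino they made up 0.243% ± 0.0385 (n = 4 each, SD). Symbols that hold a hyphen were left out of that sum, so the share of all listed FPKM is lower.

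Of the 6 most abundant members by summed FPKM, 5 belong to the large subunit. Mrpl20, a large-subunit protein that in bacteria is needed early in assembly, led with a mean of 31.8 FPKM over the 8 libraries. Mrpl51 (24.1 FPKM), Mrpl12 (23.9 FPKM), Mrpl22 (23.1 FPKM), Mrpl21 (22.6 FPKM) and Mrps6 (19.2 FPKM) followed. Mrpl12 is the protein of the flexible stalk that recruits translation factors, and Mrpl22 lines the peptide exit tunnel. From Mrpl51 to Mrps6, neighbours in this order differ by less than the SD of either over the 8 libraries, and Mrpl20 stands above Mrpl51 by more than the SD of Mrpl51 but less than its own. The order is that of sums. Mrpl20 sums 6 rows, the highest at 11.9 FPKM in controls. The single rows of Mrpl34 (20.2 FPKM) and Mrpl4 (18.4 FPKM), outside these 6 members, were higher in controls.

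At the other end, Mrpl11 (0.787 FPKM), Mrps27 (0.622 FPKM), Mrps5 (0.415 FPKM) and Mrps34 (0.342 FPKM) lay below the filter and were not tested. The 3 least abundant tested members were Mrpl1 (1.15 FPKM), part of the stalk where transfer RNAs leave, Mrpl14 (1.18 FPKM) at the subunit interface and Mrpl53 (1.19 FPKM), a mitochondria-specific protein. Mrpl14 was the thinnest of them in data, with 18 to 151 counting steps per library. The mean FPKM of tested members thus spanned 1.15 to 31.8. Mrpl53 shares 88.0% of its exonic bases with a model on the same strand, Gm42688, and its level may include that model's reads.

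Part of this RNA was not annotated as coding. Of the 284 transcript rows, 150 are protein-coding in GENCODE M21, and they held 71.5% of the members' FPKM in controls and 70.7% after the Med13 morpholino. Rows with a retained intron, 68 in all, held 10.0% and 9.72%, and the 50 noncoding processed transcript rows 13.0% and 13.5%. How fragments that fit several rows were assigned was not given in the sources used here. Single rows could move apart from the sum tested below. The coding row of Mrpl33 went from a mean of 1.68 FPKM in controls to 0.47 FPKM after the Med13 morpholino, while a noncoding row rose from 1.51 to 2.08 FPKM. A coding row of Mrpl13 went from 0.815 to 2.26 FPKM, while a retained-intron row fell from 3.14 to 2.04 FPKM. These genes were picked after their values were seen, and no test of single rows is given here.

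Few members changed. Each gene was tested with limma on log2(FPKM + 1), with Benjamini-Hochberg adjustment over all 11755 genes, and a gene is called when its adjusted p is below 0.05. Of 73 tested members, 1 was higher (Mrps6) and 3 were lower (Mrpl36, Mrpl19 and Mrps21) after the Med13 morpholino, 5.48% in all, where 17.1% of all genes were called (9.29% higher and 7.81% lower). The members' median log2 difference was -0.11, beside -0.06 over all genes tested, with 48 fitted below 0 and 25 above. At an unadjusted p below 0.05 stood 11 members, and 32.4% of all genes. The groups did not overlap in 8 members (10.96%), 2 higher and 6 lower, and in 21.6% of all genes.

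**Figure D1:**
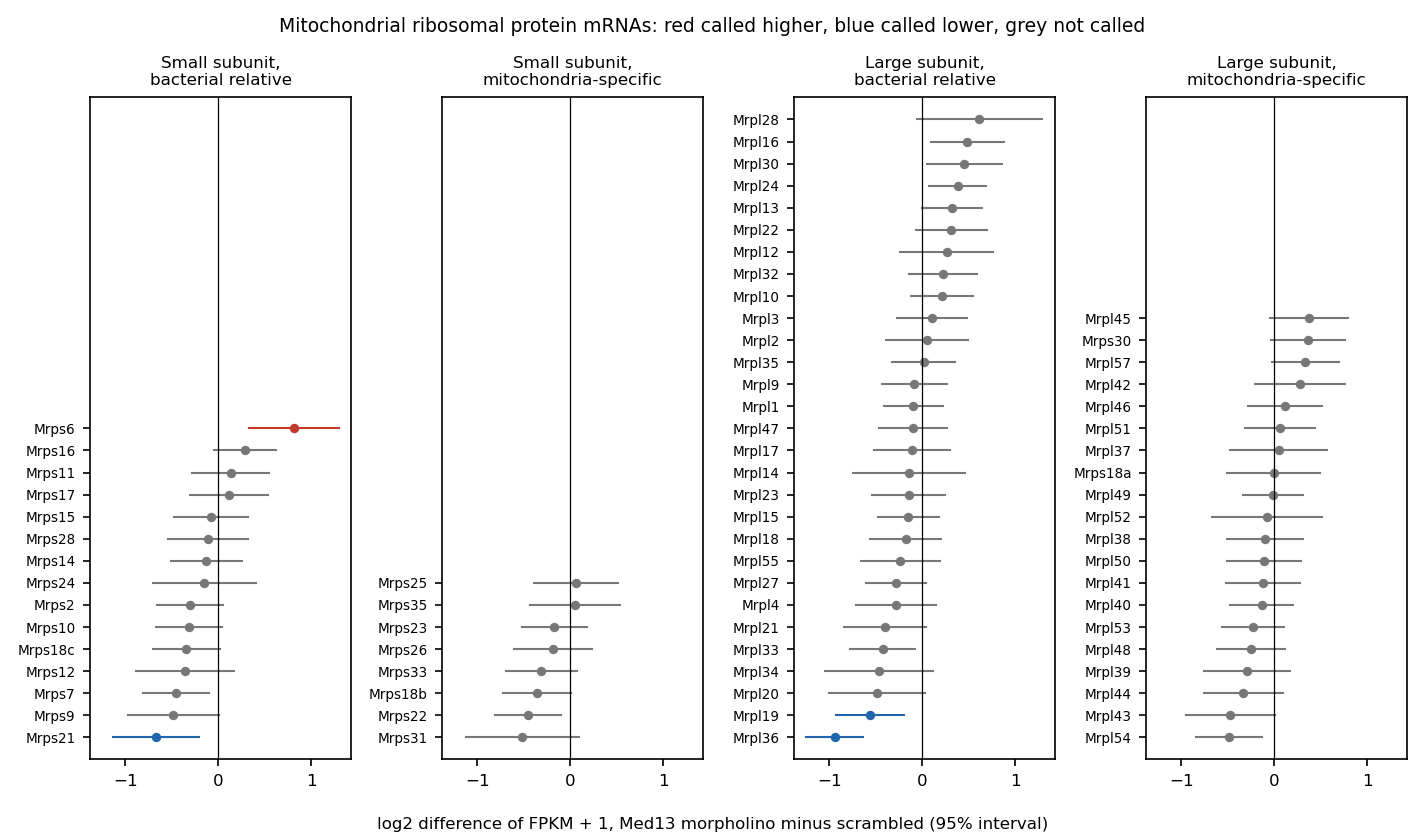
Fitted log2 difference of FPKM + 1 (Med13 morpholino minus scrambled, horizontal axis) with its 95% interval for the 72 tested proteins of the mitochondrial ribosome, by subunit and kinship; Mrps36 is not drawn. Mrps6 (red) was called higher and Mrpl36, Mrpl19 and Mrps21 (blue) lower, and the other intervals are grey.

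The measurement was about as precise for members as for other genes, with a median standard error of 0.18 on the log2 scale in both. In 66 of the 69 members that were not called, the 95% interval lay within a 2-fold change of FPKM + 1 in either direction. The same held for 9027 of the 9745 uncalled genes among all genes tested. For low members the interval on FPKM itself can go beyond 2-fold. The values per library of the 4 called members and of the 4 next by adjusted p come first.

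Mrpl36, a small zinc-binding protein of the large subunit, fell furthest. Its FPKM was 3.53, 3.29, 3.67 and 4.68 in scrambled replicates 1 to 4 and 1.58, 1.43, 1.33 and 1.605 in Med13 morpholino replicates 1 to 4. The lowest control lay above every Med13 morpholino library by a wide gap. The log2 difference was -0.94 ± 0.14 (SE; limma adjusted p = 0.00141), a fold of 0.52 with a 95% interval of 0.42 to 0.65 on FPKM + 1. The call held in all 20 of the alternative fits that tested it. Mrpl36 (ENSMUSG00000021607, GRCm38 chromosome 13, 73328513 to 73332178, plus strand) has 1 row in the table, a coding transcript of 923 bases, read from 77 to 325.5 counting steps per library.

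Mrps6, which in the bacterial small subunit pairs with the S18 protein, was the member that rose. Its FPKM was 12.4, 12.9, 14.02 and 13.6 in scrambled replicates 1 to 4 and 14.4, 26.7, 24.5 and 35.1 in Med13 morpholino replicates 1 to 4. Med13 morpholino replicate 1 stood just above the highest control and the other 3 well above it. The log2 difference was 0.82 ± 0.22 (SE; limma adjusted p = 0.0272), a fold of 1.76 on FPKM + 1. Leaving out 1 library at a time ended the call in 6 of 8 fits, all but those without scrambled replicate 2 or Med13 morpholino replicate 1, with adjusted p from 0.0515 to 0.0839. It was also lost with no filter on low values (0.099). Mrps6 (ENSMUSG00000039680, chromosome 16, 92058270 to 92112227, plus strand) shares 19.9% of its exonic bases with the model Gm49711 on the same strand, not analysed here, and 10.4% with the inositol transporter gene Slc5a3, also on the same strand, which stood at 7.44 ± 0.818 and 6.67 ± 1.31 FPKM (n = 4 each, SD; limma adjusted p = 0.559). Its coding row went from 9.10 to 17.6 FPKM in the group means and its noncoding row from 4.14 to 7.58 FPKM.

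Mrpl19, a large-subunit protein at the interface between subunits, was lower. Its FPKM was 3.16, 2.96, 2.84 and 3.27 in controls and 1.03, 1.76, 2.40 and 1.98 after the Med13 morpholino, in replicate order, and the groups did not overlap. The log2 difference was -0.56 ± 0.17 (SE; limma adjusted p = 0.0374). It was no longer called without scrambled replicate 1, 3 or 4 or Med13 morpholino replicate 1 or 2 (adjusted p from 0.0687 to 0.098), nor with protein-coding rows only (0.0532), the highest row only (0.0517), no filter on low values (0.102), or scrambled replicate 2 and Med13 morpholino replicate 1 both left out (0.0764). Mrpl19 (ENSMUSG00000030045, chromosome 6, 81957851 to 81965958, minus strand) shares 36% of its exonic bases with Gcfc2 on the other strand, and the strand setting was not given in the sources used here. Gcfc2 itself was at 0.501 ± 0.171 and 0.314 ± 0.132 FPKM (n = 4 each, SD), below the filter.

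Mrps21 was the least secure of the 4. Its FPKM was 8.70, 7.95, 8.99 and 6.75 in controls and 2.995, 7.54, 4.17 and 4.95 after the Med13 morpholino, in replicate order. Med13 morpholino replicate 2 lay inside the range of the controls, so the groups overlapped. The log2 difference was -0.67 ± 0.21 (SE; limma adjusted p = 0.048), and leaving out 1 library at a time ended the call in 7 of 8 fits (adjusted p from 0.0558 to 0.124), all but that without Med13 morpholino replicate 2. It was also lost with median-ratio scaling (0.0603), upper-quartile scaling (0.0522), quantile normalization (0.0511), a pseudocount of 0.1 (0.0508), the highest row only (0.124), no filter on low values (0.142), sample weights (0.102), and scrambled replicate 2 and Med13 morpholino replicate 1 both left out (0.115). Mrps21 (ENSMUSG00000054312, chromosome 3, 95862634 to 95871519, minus strand) has a processed pseudogene, Gm6181, that is 97.3% identical over 264 bases and was listed at a mean of 0.065 FPKM.

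**Figure D2:**
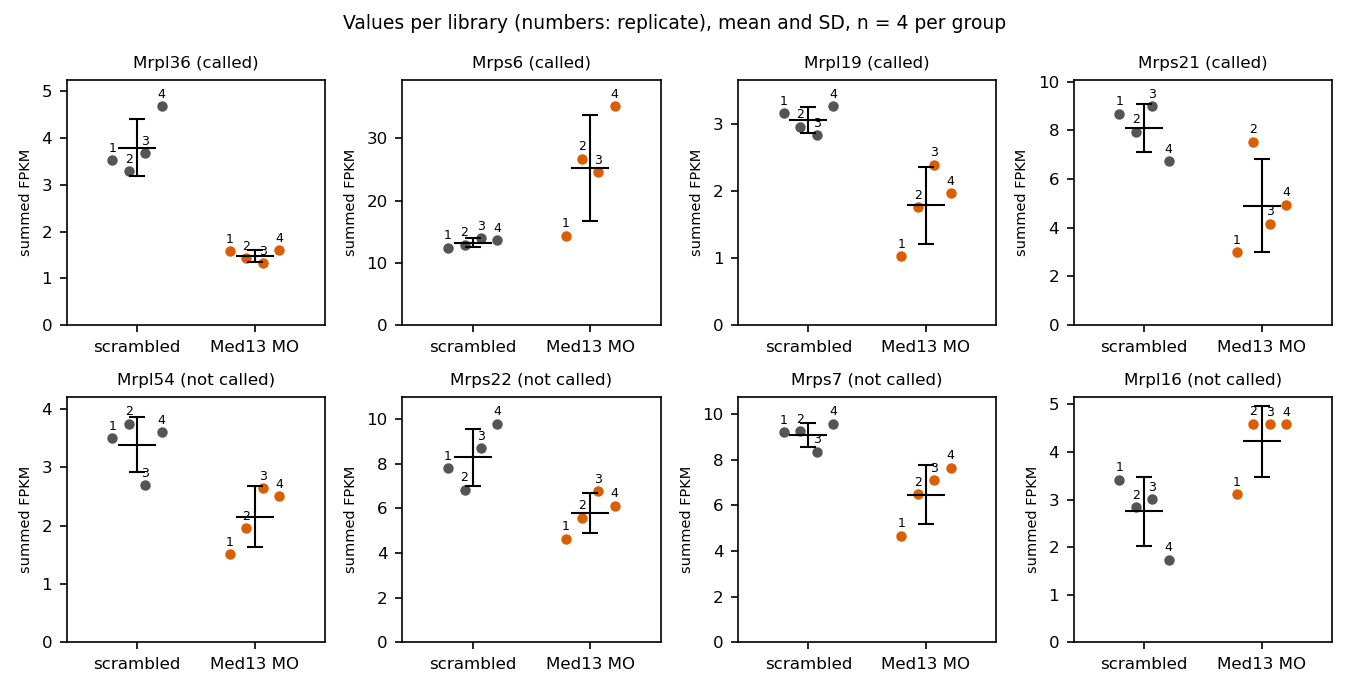
Summed FPKM (vertical axis) per library for the 4 called members (upper row) and the 4 uncalled members with the smallest adjusted p (lower row); points are libraries with their replicate number, bars the mean and SD of 4. Mrpl36 separates the groups, and Med13 morpholino replicate 1 lies just above the highest control in Mrps6 and among the controls in Mrpl16.

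Next in line were 3 members with lower fitted values and 1 with a higher one, none called. Mrpl54, a mitochondria-specific large-subunit protein, stood at 3.38 ± 0.473 and 2.15 ± 0.519 FPKM (limma adjusted p = 0.0593), and Mrps22, which is mitochondria-specific and known for human disease mutations, at 8.27 ± 1.26 and 5.78 ± 0.902 FPKM (0.0747). Mrps7, a protein of the head of the small subunit, stood at 9.09 ± 0.527 and 6.47 ± 1.29 FPKM (0.076; n = 4 each, SD). In these 3 all 4 Med13 morpholino libraries were below every control, narrowly so in Mrpl54 (2.64 against 2.69 FPKM) and Mrps22 (6.78 against 6.84 FPKM). Mrpl16 stood at 2.75 ± 0.717 and 4.22 ± 0.738 FPKM (0.084). Mrpl16 was at 4.59 to 4.599 FPKM in Med13 morpholino replicates 2 to 4 and at 3.11 FPKM in replicate 1, which lies among the controls (1.74 to 3.42 FPKM). These 4 gained a call under some alternatives, Mrps22 in 5 of 21 (limma adjusted p down to 0.0102), Mrps7 in 4 of 21 (0.0279), Mrpl54 in 2 of 20 (0.0352) and Mrpl16 in 1 of 20 (0.0109), each lowest value with sample weights.

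The remaining members are given by subunit and kinship, first the small subunit. Of 15 tested members with bacterial relatives, 1 rose and 1 fell, with a median log2 difference of -0.15. Of 8 mitochondria-specific ones none was called (limma, 1 at an unadjusted p below 0.05), with a median of -0.25 and values from -0.52 to 0.07. In the large subunit, 2 of 29 members with bacterial relatives fell and none rose (median -0.10). None of its 20 mitochondria-specific members was called (limma, 1 at an unadjusted p below 0.05), with a median of -0.09 and values from -0.48 to 0.38. All 4 called members are thus in the class with bacterial relatives, 4 of 44 tested (9.09%), and 0 of 28 mitochondria-specific members was called. Among all genes tested 17.1% were called, a larger share than in either class. The difference between the classes rests on 4 calls and was not tested. Of these calls, only that of Mrpl36 held in every alternative fit that tested it. Summed FPKM of the mitochondria-specific small-subunit members was 59.8 ± 5.25 in controls and 49.9 ± 10.9 after the Med13 morpholino, and that of large-subunit members with bacterial relatives 259 ± 21.3 and 247 ± 53.04 (n = 4 each, SD). Those of the other small-subunit and large-subunit members were 98.6 ± 6.43 and 98.2 ± 24.3 for the former, and 130.02 ± 11.1 and 129.9 ± 23.6 for the latter. The mitochondria-specific small-subunit sum includes Mrps25, at 6.73 ± 1.64 and 7.15 ± 2.05 FPKM. Mrps25 shares 69.8% of its exonic bases with Nr2c2 on the other strand, and its level may include reads of that gene. Nr2c2 stood at 30.6 ± 5.61 and 20.8 ± 5.44 FPKM (limma adjusted p = 0.079).

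The 3 Mrps18 paralogs take different places in the ribosome, Mrps18c at the site of the bacterial S18 protein, Mrps18b elsewhere in the small subunit and Mrps18a in the large subunit. Mrps18b was the most abundant, at 11.1 ± 1.27 FPKM in controls and 8.504 ± 1.71 FPKM after the Med13 morpholino (limma adjusted p = 0.164). Mrps18c stood at 6.94 ± 0.823 and 5.31 ± 1.11 FPKM (0.178) and Mrps18a at 2.13 ± 0.821 and 2.12 ± 0.862 FPKM (0.987; n = 4 each, SD). None of the 3 was called, and in each the groups overlapped. Mrps18c shares 23.2% of its exonic bases with the model Gm43511 on the same strand. Mrps18b shares 30.5% with the model Gm16279 on the other strand. The levels of both may include reads of these models. The fitted difference of Mrps18a changed sign with the scaling.

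The summed level of the members varied widely between the Med13 morpholino libraries. Summed over the 77 members, FPKM was 530, 504, 599 and 569 in scrambled replicates 1 to 4 and 388, 519, 546 and 658 in Med13 morpholino replicates 1 to 4. The lowest and the highest of the 8 libraries were thus both Med13 morpholino libraries, and the control values lay between them. In Med13 morpholino replicate 1, 35 of 73 members (47.9%) had their lowest value of all 8 libraries, where 27.4% of all genes tested had theirs, and 0 had their highest. In replicate 4, 21 members (28.8%) had their highest value, against 18.8% of all genes, and 0 had their lowest. Replicates 1 and 4 hold the lowest and highest summed level of the members, so comparing them favours higher values in replicate 4 among members. Replicate 4 was above replicate 1 in 69 of 73 members, by a median of 1.46-fold on FPKM + 1. Over all genes tested it was above in 7398 of 11755, by a median of 1.11-fold. Cytosolic ribosomal proteins showed the same order in 76 of 76 genes, by a median of 2.31-fold.

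**Figure D3:**
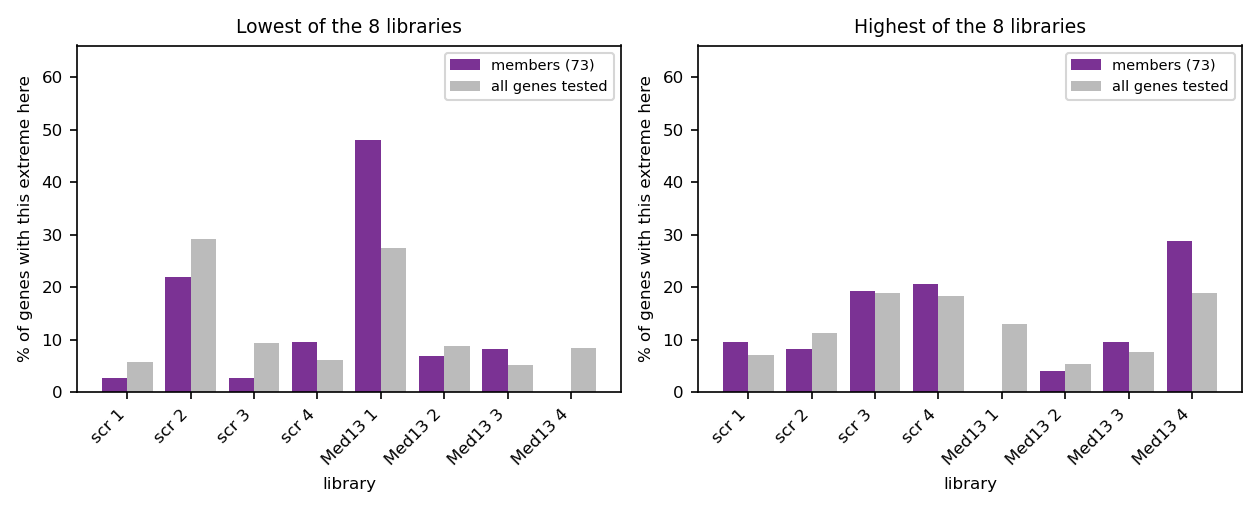
Share of genes (vertical axis, percent) whose lowest (left) or highest (right) value of the 8 libraries falls in each library (horizontal axis), for the 73 tested members (purple) and all 11755 genes tested (grey). Med13 morpholino replicate 1 holds the lowest value of 47.9% of the members, and replicate 4 the highest of 28.8%.

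Within the Med13 morpholino group the members' median SD on the log2 scale was 0.29, and within the controls 0.22. It was larger after the Med13 morpholino in 45 of 73 members (61.6%) and in 41.9% of 3726 genes of like level. Without Med13 morpholino replicate 1 the members' median log2 difference was -0.02, and without replicate 4 it was -0.16. Mrpl20 had 33.6, 33.5, 37.9 and 40.6 FPKM in controls and 14.7, 24.9, 34.4 and 34.4 FPKM after the Med13 morpholino. Mrpl12 had 20.3 to 22.2 FPKM in the controls and 15.02, 24.3, 30.6 and 37.0 FPKM after the Med13 morpholino. Mrpl28, named after its values were seen, had 5.54 to 8.88 FPKM in controls and 5.97, 7.29, 16.8 and 19.2 FPKM after the Med13 morpholino (limma adjusted p = 0.19).

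**Figure D4:**
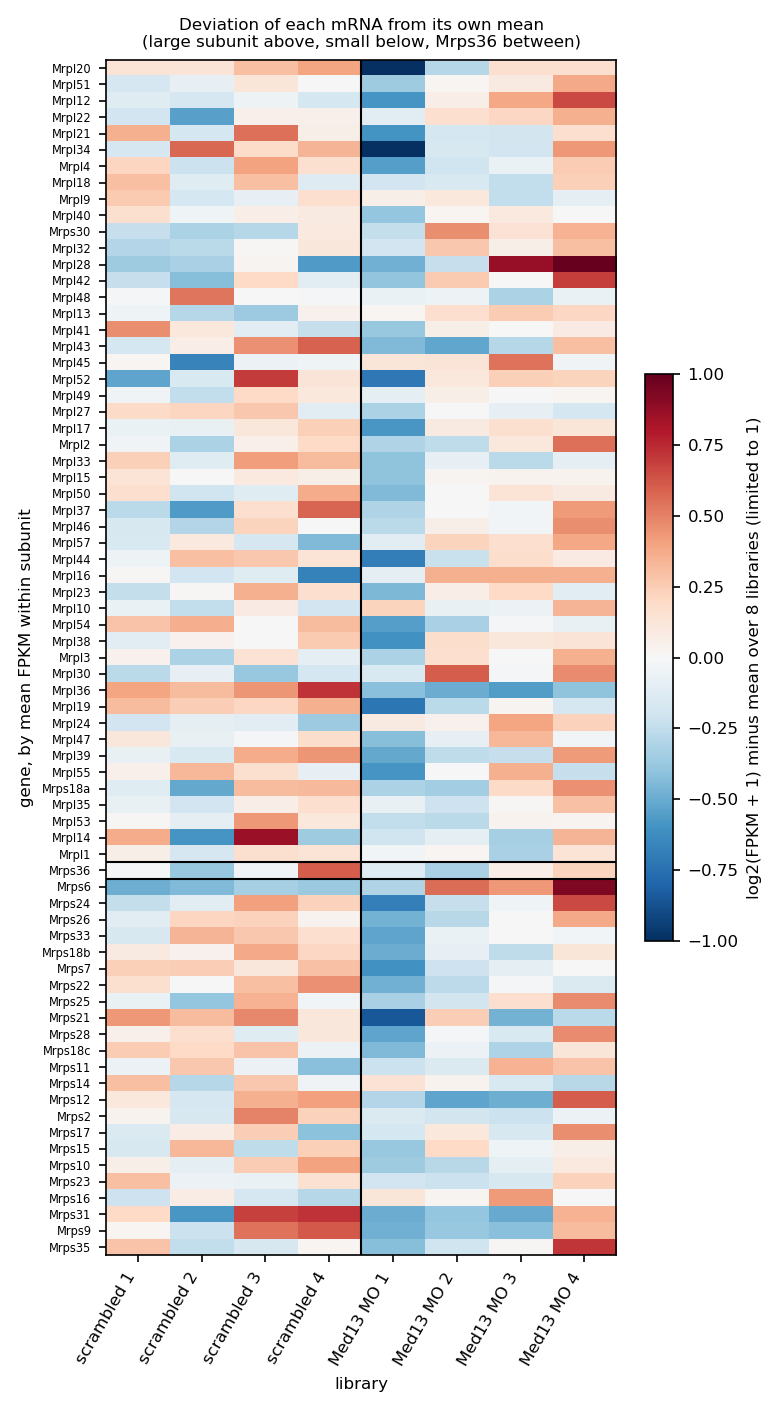
Deviation of each tested member from its own mean over the 8 libraries, as log2(FPKM + 1), by library (columns) and gene (rows, large subunit above, small subunit below, Mrps36 between); colours end at 1. The column of Med13 morpholino replicate 1 is mostly blue (66 of 73 members below their mean) and that of replicate 4 mostly red (16 of 73 below).

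Other genes of mitochondrial translation, of mitochondrial transcription and of their nuclear regulation were counted from 6 lists. Over their 87 tested genes, none a member, 3 rose and 6 fell (10.3%, where 17.1% of all genes were called). Among 6 ribosomal proteins with other names, 1 fell. It was Ict1, a hydrolase built into the large subunit that rescues stalled ribosomes, with 2.29, 1.54, 2.68 and 1.90 FPKM in controls and 0.555, 0.977, 1.32 and 1.30 FPKM after the Med13 morpholino (limma adjusted p = 0.0305). Of 17 translation factors, 1 rose and none fell, the release factor gene Mtrf1, from 0.85 ± 0.293 to 1.54 ± 0.177 FPKM (0.0441). Of 24 genes for assembly and ribosomal RNA modification, 1 rose and 1 fell. Nsun4, a methyltransferase of the small-subunit RNA, went from 2.46 ± 0.743 to 4.71 ± 0.331 FPKM (0.0152), and Mterf3, of the family of mitochondrial transcription termination factors, from 19.5 ± 3.32 to 12.8 ± 1.27 FPKM (0.0326; n = 4 each, SD).

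None of 12 tested mitochondrial aminoacyl-tRNA synthetase genes was called (limma, 2 at an unadjusted p below 0.05). The most abundant of them were Lars2, at 305 ± 81.2 and 283 ± 52.8 FPKM, and Kars, at 20.52 ± 4.06 and 17.7 ± 3.56 FPKM. Of 17 genes for mitochondrial transcription and RNA processing, 1 rose and 3 fell. Tfam, the packaging and transcription factor of mitochondrial DNA, fell from a mean of 2.24 ± 0.437 to 1.09 ± 0.449 FPKM (limma adjusted p = 0.0283) and the tRNA-processing nuclease Elac2 from 5.95 ± 2.09 to 3.17 ± 0.679 FPKM (0.0455). Fastkd3 went from 12.0 ± 2.89 to 7.31 ± 0.962 FPKM (0.0372) and Angel2 from 18.5 ± 3.97 to 28.98 ± 6.61 FPKM (0.0446; n = 4 each, SD). Leaving out 1 library ended the calls of Ict1, Mtrf1, Mterf3, Tfam, Fastkd3, Angel2 and Elac2 in at least 1 fit, and that of Nsun4 in none. With no filter on low values 0 of these genes was called.

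Of 11 tested nuclear regulators of genes for mitochondria, not all of which bind DNA themselves, 1 fell and none rose. It was Yy1, with 65.8, 110.6, 45.6 and 32.3 FPKM in controls and 28.5, 23.2, 23.1 and 21.6 FPKM after the Med13 morpholino (limma adjusted p = 0.0164). The groups did not overlap, and the controls spread widely. Gabpa, the DNA-binding subunit of the ETS-family factor GABP, stood at 93.6 ± 10.4 and 71.9 ± 7.09 FPKM (0.111) and Nrf1 at 27.3 ± 4.42 and 22.9 ± 6.79 FPKM (0.386; n = 4 each, SD). Not called either were Gabpb1, Gabpb2, Pprc1, Myc, Creb1, Sp1, Hcfc1 and Zfp143, with log2 differences from -0.45 to 0.24.

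Promoters from RefSeq (GRCm38.p6, 250 bases before to 50 after each start) were found for 68 members, 74 starts in all, and searched on both strands for the palindromic core of NRF1, the letters CCGGAAG of GABPA and AAGATGGC of YY1. None of the printed stretches holds more than 1 match. The YY1 letters stood in 16.2% of member promoters, beside 4.66% of the 9602 promoters of tested genes and 2.75% of all 32851. Those of GABPA stood in 33.8%, 18.6% and 8.86% and those of NRF1 in 4.05%, 2.20% and 0.97%. The following 150 bases, which end just before the start, show these letters in capitals for a called and for uncalled members, and Mrps21 as a called member with no match in the stretch (its GABPA letters begin 18 bases after the start).
Mrpl36, chr13:73330859-73331008 plus strand: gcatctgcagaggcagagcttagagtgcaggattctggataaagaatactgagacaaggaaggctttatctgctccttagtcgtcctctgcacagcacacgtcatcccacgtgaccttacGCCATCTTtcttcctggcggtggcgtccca
Mrps21, chr3:95871515-95871664 minus strand: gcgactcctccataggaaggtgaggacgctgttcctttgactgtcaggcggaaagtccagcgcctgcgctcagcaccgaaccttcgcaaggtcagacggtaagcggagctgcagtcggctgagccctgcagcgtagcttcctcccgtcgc
Mrps22, chr9:98601680-98601829 minus strand: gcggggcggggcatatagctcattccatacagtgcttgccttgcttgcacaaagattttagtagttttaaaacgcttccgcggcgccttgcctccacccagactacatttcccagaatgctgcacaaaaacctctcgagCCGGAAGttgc
Mrpl9, chr3:94443186-94443335 plus strand: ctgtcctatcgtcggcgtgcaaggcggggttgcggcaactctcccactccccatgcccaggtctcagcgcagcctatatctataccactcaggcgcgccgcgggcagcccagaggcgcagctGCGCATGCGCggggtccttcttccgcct

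In Mrpl36 the capitals are the YY1 letters on the other strand, beginning 30 bases before the start. Mrps22 has those of GABPA beginning 11 bases before its start, and Mrpl9 those of NRF1 beginning 28 bases before. The 11 tested members with the YY1 letters had a median log2 difference of -0.01, 1 of them called (Mrpl36), and the 54 without them -0.12. The 24 with the GABPA letters had a median of -0.24, with 19 fitted below 0, and the 41 without them -0.08, with 23 below 0. The 3 with the NRF1 letters had a median of -0.08. These are descriptions of the letters in a window and of these values. Mrps6 had no match in its window, whose last 150 bases before the start were 75.3% G and C.

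Of the members, 33 have a protein-coding gene starting on the other strand within 1000 bases, and 21 of those neighbours were tested. Starts here are those of the GENCODE genes, which can differ from the RefSeq starts of the promoters above. Of the 21 tested neighbours, 1 was called higher, Tmem63b beside Mrpl14, and 1 lower, Wdfy1 beside Mrpl44, where neither member was called. Among all genes tested 17.1% were called. The 21 include Mrps11 and Mrpl46, which are members and neighbour each other. Tmem63b rose from 2.83 ± 1.04 to 5.62 ± 1.20 FPKM (limma adjusted p = 0.0208) and Wdfy1 from 2.49 ± 0.314 to 1.52 ± 0.33 FPKM (0.0451; n = 4 each, SD). By its GENCODE start at base 73328513, Mrpl36 lies head to head with the complex I gene Ndufs6. The stretch of Mrpl36 printed above, at 73330859 to 73331008, lies downstream of that start and belongs to another one. Ndufs6 was at 0.636 ± 0.196 and 0.519 ± 0.174 FPKM and below the filter.

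The genes most like Mrpl36 over the 8 libraries, by Pearson correlation of log2(FPKM + 1), were Purb (0.99), Rnf31 (0.99) and Kctd9 (0.99), and the most like member was Mrps22 (0.84). These points share their library and its depth, and the group difference is part of them.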

How the data were processed

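The authors deposited 1 table of FPKM values per Ensembl transcript. Per the submitters' processing notes, BWA and mm10 were used. No source used here states the counting tool, annotation release or strand setting. Per the labels' protocols, RNA of 40 embryos per pool was amplified (Ovation RNA-Seq System V2) and 400 ng of cDNA entered TruSeq libraries. Columns were matched to samples by title. The 3758 rows whose symbol holds a hyphen are moved by 1 column and were left out, which left 93738 rows and no member lost. The column of scrambled replicate 1 holds text in the moved rows, and its other values are FPKM.

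Rows were summed per symbol, genes with a mean of at least 1 FPKM kept, and log2(FPKM + 1) tested with limma 3.58.1 in R 4.3.3 (mean-variance trend, two-sided). Folds are on FPKM + 1 and understate changes of low genes. Transcripts and coordinates are from GENCODE M21 (GRCm38, the assembly of mm10). Precision is limited by 4 libraries per group, and amplified reads carry no molecular identifiers. The members and lists were chosen with earlier results of these data known. Genes were named by rule: called members, the 6 most and 3 least abundant tested, the 4 uncalled with the smallest adjusted p, the Mrps18 family, up to 4 called genes per list (or the 2 most abundant), all tested regulators, and the 3 genes most like the first called member. Others are counted, or named because they fall below the filter, overlap or neighbour a member, or were picked after their values were seen. Alternatives changed the pseudocount, filter, scaling, transcript rows, model and libraries.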

Additional observations from a re-analysis of the deposited data

Results flagged for a closer look

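In 84 groups of 4 values examined (40 named genes and 2 summaries, 2 groups each), 4 had 1 library far from the other 3, by a gap above the critical value of Dixon's test at the 95% level. Chance gives about 1 in 20. Mrpl16 was at 3.11 FPKM in Med13 morpholino replicate 1, where the others were at 4.59 to 4.599. Angel2 was at 38.8 FPKM in the same library, where the others were at 24.2 to 26.6. Myc was at 6.84 FPKM in scrambled replicate 1, where the others were at 7.70 to 7.85. Sp1 was at 24.3 FPKM in Med13 morpholino replicate 3, where the others were at 26.6 to 26.7.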

How the results depend on the processing

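Leaving out 1 library at a time gave 0 to 1 members higher, 1 to 5 lower, 2 to 15 pathway genes called and 956 to 2404 genes called in all. The members' median log2 difference ran from -0.165 to -0.020 in those fits and stayed below 0 in all 21 alternatives. With no filter on low values 0 members were higher and 1 lower, 0 pathway genes and 1012 genes in all were called. At a mean FPKM of at least 5, 1 member was lower, and 4 pathway genes and 1137 genes in all were called. Equal totals gave 5 members lower, and protein-coding rows only gave 3 higher and 4 lower. Sample weights gave 6 higher, 16 lower, 31 pathway genes and 4336 genes in all. With scrambled replicate 2 and Med13 morpholino replicate 1 both left out, an alternative chosen after seeing the data, 3 were higher and 1 lower. The cause of these shifts was not tested.

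Uncalled differences near 0 changed sign (log2). Median-ratio scaling gave 0.037 for Mrps18a, 0.021 for Myc and 0.0052 for Zfp143, upper-quartile scaling 0.019 for Mrps18a, and quantile normalization 0.00080 for Zfp143. The highest row only gave -0.158 for Gabpb2, 0.037 for Myc and -0.041 for Sp1, and protein-coding rows only -0.086 for Mrpl51 and -0.113 for Gabpb2. Sample weights gave 0.024 for Lars2 and 0.142 for Myc, and leaving out both libraries 0.204 for Lars2, -0.018 for Gabpb2 and 0.078 for Myc. Leaving out 1 library gave -0.050 to 0.195 for Mrpl51, -0.178 to 0.108 for Mrps18a, -0.259 to 0.065 for Lars2, -0.035 to 0.139 for Gabpb2, -0.260 to 0.073 for Pprc1, -0.139 to 0.066 for Myc and -0.00105 to 0.101 for Med13. No paired analysis was run because no label pairs the libraries of the groups. The library numbers alternate between the groups, and whether neighbouring ones belong together is not stated. Depth limits the low members most, and 4 were not tested.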

Other observations

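Among the rows moved by 1 column are 5 pseudogenes of members. With the values read as displaced to the right by the text in the first column, Mrpl23-ps1, a processed pseudogene on chromosome 2 that is identical to the Mrpl23 mRNA over 540 bases, was listed at 345, 816, 256 and 199 FPKM in scrambled replicates 1 to 4 and at 162, 202 and 311 FPKM in Med13 morpholino replicates 1 to 3 (replicate 4 has no value). Mrpl23, the exit-tunnel protein gene itself, stood at 2.10 to 4.40 FPKM. These reads cannot be told apart over the shared bases, so the level of Mrpl23 is uncertain. The other 4, Mrpl48-ps and Mrps36-ps1 to -ps3, did not exceed 1.10 FPKM. Of the members, 7 have a transcript of another gene at 95% identity or more over at least 50% of their main coding transcript (Mrpl21, Mrpl22, Mrpl23, Mrpl27, Mrpl42, Mrps10 and Mrps21).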
